A study of Mus musculus with 8 samples.

Results

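Small leucine-rich proteoglycans are secreted matrix proteins whose core is built from leucine-rich repeats and often carries glycosaminoglycan chains. They bind collagen fibrils and set how these assemble, hold growth factors of the TGF-beta family in the matrix, and once released can act on receptors of innate immunity and growth. Biglycan, decorin and asporin form one class of the family, fibromodulin, lumican and prolargin another, and osteoglycin belongs to a further class. In the brain, decorin, lumican and osteoglycin are best known from fibroblasts of the meninges and of large vessel walls, whereas biglycan is also made by vessel cells.

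The 7 genes described here were Bgn (biglycan), Dcn (decorin), Lum (lumican), Ogn (osteoglycin), Prelp (prolargin), Fmod (fibromodulin) and Aspn (asporin), out of 24394 gene symbols shared by the 8 libraries. They were chosen by family membership, around Bgn, which was selected on its difference between the groups in these same libraries. The values of Bgn are therefore given as a description with no test. RNA came from endothelial cells of mouse brain, sorted by flow cytometry at postnatal day 8 from mice of the C57BL/6J strain. The WT group held 4 libraries from wild-type mice. The YT-ECKO group held 4 libraries from mice with VE-cadherin-CreERT2 and the alleles Yapf/f and Tazf/f, in which a Cre that tamoxifen switches on is driven by the endothelial VE-cadherin promoter and acts on floxed Yap and Taz, 2 co-activators of the Hippo pathway. Whether the wild-type mice carried Cre or received tamoxifen, and whether animals were pooled, is not stated in the labels, so Cre, tamoxifen and the deletion cannot be told apart. P-values measure the spread between libraries, which may be technical. The comparison asked here is whether Bgn was lower on its own or together with its fibroblast-expressed relatives.

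Values are scaled reads, the deposited log2 values returned to the linear scale, with totals of 10.3 to 10.9 M per library and an implied depth of 6.74 to 16.8 M reads. Sparse detection was common: 11456 symbols were at 0 in all 8 libraries and 1742 were above 0 in exactly 1. Endothelial RNA was abundant throughout: the summed scaled reads of 14 endothelial markers ran from 185790 to 210340 in WT and from 159270 to 218660 in YT-ECKO, and all 14 passed the filter on low values (10 scaled reads or more in 4 or more libraries). The targeted genes were lower in YT-ECKO without overlap, with Wwtr1 (Taz) at 5650 to 8220 scaled reads in WT and 348 to 2609 in YT-ECKO, and Yap1 at 1409 to 2833 in WT and 9.29 to 605 in YT-ECKO. Over all genes the Wwtr1 difference was called (limma adjusted p = 0.0113) and that of Yap1 was not (limma adjusted p = 0.175). The Wwtr1 call was lost in limma without WT 1 (adjusted p = 0.0755), WT 2 (0.0580) or YT-ECKO 4 (0.0677), with differences of -2.34 to -2.50. It was also lost in limma with Xist as covariate (adjusted p = 0.0950), a pseudocount of 16 (0.0822) or 1 (0.263) or no filter (0.854), and by voom (0.208), with lower values in YT-ECKO each time. The floxed exons are not given in the labels, so reads from outside them count toward the same symbols.

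Bgn lies by itself on the X chromosome (73483602 to 73495933, plus strand, GRCm38, GENCODE M21), whereas the 6 relatives lie in 3 clusters. Optc, Prelp and Fmod stand within 151.1 kb of chromosome 1, Dcn, Lum, Kera and Epyc within 202.8 kb of chromosome 10, and Ecm2, Aspn, Omd and Ogn within 119.7 kb of chromosome 13. No annotated gene overlapped Bgn on either strand. Cenpp, a centromere protein gene on the minus strand, spans Ogn and Aspn, and Gm15851 lies antisense to Prelp. Without a stated strand setting, reads of such pairs cannot be told apart. Cenpp itself was above 0 in 3 libraries, WT 2, WT 3 and YT-ECKO 1, none of which had reads for Ogn or Aspn.

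The promoter windows of Bgn, the member detected in every library, and of Fmod, the relative detected most often, are shown as the start regions of the members on which the comparison turns. They run from 250 bases before to 50 after the annotated start (RefSeq, GRCm38.p6, plus strand; chrX:73483351-73483650 and chr1:134037004-134037303). Capitals mark matches to the GC box GGGCGG on either strand, of which Bgn holds 3, with the last 2 overlapping, and Fmod holds 0.
Bgn: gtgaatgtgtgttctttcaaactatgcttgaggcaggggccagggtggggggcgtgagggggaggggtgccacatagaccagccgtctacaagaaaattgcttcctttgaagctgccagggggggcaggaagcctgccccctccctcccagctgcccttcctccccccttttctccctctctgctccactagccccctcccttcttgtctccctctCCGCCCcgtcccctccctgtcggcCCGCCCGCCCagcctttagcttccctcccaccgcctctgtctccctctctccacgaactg
Fmod: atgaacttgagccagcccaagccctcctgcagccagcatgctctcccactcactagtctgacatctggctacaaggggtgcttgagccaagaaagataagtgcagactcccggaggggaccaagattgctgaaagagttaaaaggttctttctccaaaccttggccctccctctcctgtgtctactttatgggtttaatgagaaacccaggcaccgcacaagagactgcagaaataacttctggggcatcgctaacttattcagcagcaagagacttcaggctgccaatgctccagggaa

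A GC box match was found in 35.9% of 32544 promoter windows of this length. The TEAD core motif GGAATG, searched on both strands, was found in 14.6% of all windows, once in Ogn and not in those of Bgn, Fmod, Prelp or Aspn. The AP-1 motif, spelled TGANTCA, was in 7.79% of all windows and in none of these 5. The TATA box motif TATAAA was in 13.6% of all windows, with 2 matches each in Ogn and Aspn and 0 in Bgn, Prelp and Fmod. The last 150 bases of the Bgn window were 82.7% C or T, against a median of 49.3% over all windows, a property picked after the sequence was seen. Promoter windows of 5 of the 7 members were matched, those of Dcn and Lum being the others. A match describes letters in a window and not a binding site.

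Bgn was well expressed in every wild-type library and low in every YT-ECKO library. It stood at 2569, 3066, 2957 and 2566 scaled reads in WT 1 to 4 and at 424.9, 508.8, 408.4 and 111.5 in YT-ECKO 1 to 4. The WT libraries lay close together, with a ratio of highest to lowest of 1.20, and the YT-ECKO libraries spread over a ratio of 4.56 because YT-ECKO 4 was far below the other three. The groups did not overlap: the lowest WT library was 5.04 times the highest YT-ECKO library. The means were 2789 ± 260.3 in WT and 363 ± 174 in YT-ECKO (SD, n = 4 each), 7.68-fold lower. Without YT-ECKO 4 the mean of that group was 447 ± 53.8 (SD, n = 3), 6.23-fold below WT. On the log2 scale of the fit over all genes, which adds a pseudocount and understates changes of low genes, the difference was -2.66 ± 0.44 (SE), with a 95% interval from -3.56 to -1.76. The implied read numbers were 2148 to 4184 in WT and 98 to 571 in YT-ECKO, so the error of counting reads is small beside the spread between libraries. How many captured molecules these reads stand for is not known, and the error of that sampling was not measured. In bulk RNA, fewer cells that make a transcript and less of it per cell cannot be told apart.

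The fit called 3 of 8706 tested genes lower, or 0.0345%, and 0 higher (limma, Benjamini-Hochberg adjusted p under 0.05), and Bgn is 1 of the 3 because it was selected for this. The groups were apart, with YT-ECKO lower, for 180 tested genes, or 2.07%, Bgn included. Across the tested genes the median difference was -0.09 on the log2 scale.

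The 6 relatives were hardly detected in the sorted cells of both genotypes. Bgn was the only member to pass the filter, and of the 48 values of the other 6 genes, 6 were above 0, 5 of them in WT and 1 in YT-ECKO. Lum, which helps order collagen fibrils in cornea and skin, and Prelp, which anchors basement membranes to connective tissue, were listed at 0 in all 8 libraries. Dcn, the closest relative of Bgn and a collagen-binding proteoglycan, stood at 225.3 scaled reads in WT 2 and was listed at 0 in the other 7 libraries. Ogn stood at 6.7 scaled reads in WT 1 and Aspn, which binds collagen without a glycosaminoglycan chain, at 46.6 in YT-ECKO 3, each at 0 in all other libraries. These values correspond to 158, 11 and 61 implied reads.

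Fmod, which binds type I collagen and TGF-beta, was the only relative detected in more than 1 library. It stood at 48.6, 91.5 and 48.5 scaled reads in WT 1 to 3, was listed at 0 in WT 4, and was at 0 in YT-ECKO 1 to 4. The higher values were thus in WT, as for Bgn, at 56 to 79 implied reads in the libraries where Fmod was seen. Of 1884 genes above 0 in exactly 3 of the 4 WT libraries, 149 were at 0 in all YT-ECKO libraries, or 7.91%. WT 4 overlaps with YT-ECKO at 0, Fmod did not pass the filter, and no fold is given. The 3 reads that a count of 0 allows correspond to 2.31 to 4.61 scaled reads in the YT-ECKO libraries, and this limit covers counting error only.

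The coding sequences of the 7 genes are alike in length, from 894 bases for Ogn to 1134 for Prelp (1107 for Bgn), and levels were not divided by length because the kit reads transcripts from their 3′ ends. Bgn made up 90.6% to 100% of the scaled reads of the 7 genes in WT and 89.8% to 100% in YT-ECKO. The 6 relatives together reached 55.2, 317, 48.5 and 0 scaled reads in WT 1 to 4, of which 225.3 in WT 2 was Dcn. In WT 4 the sum of the relatives was 0 while Bgn stood at 2566 scaled reads. With Dcn, Lum, Ogn, Prelp and Aspn at 0 in at least 3 of the 4 WT libraries, lower levels of these 5 genes in YT-ECKO were not detectable. Detection did not follow depth alone: Dcn had 158 implied reads in WT 2 (7.52 M reads) and 0 in WT 1, the deepest library (16.8 M).

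**Figure D1:**
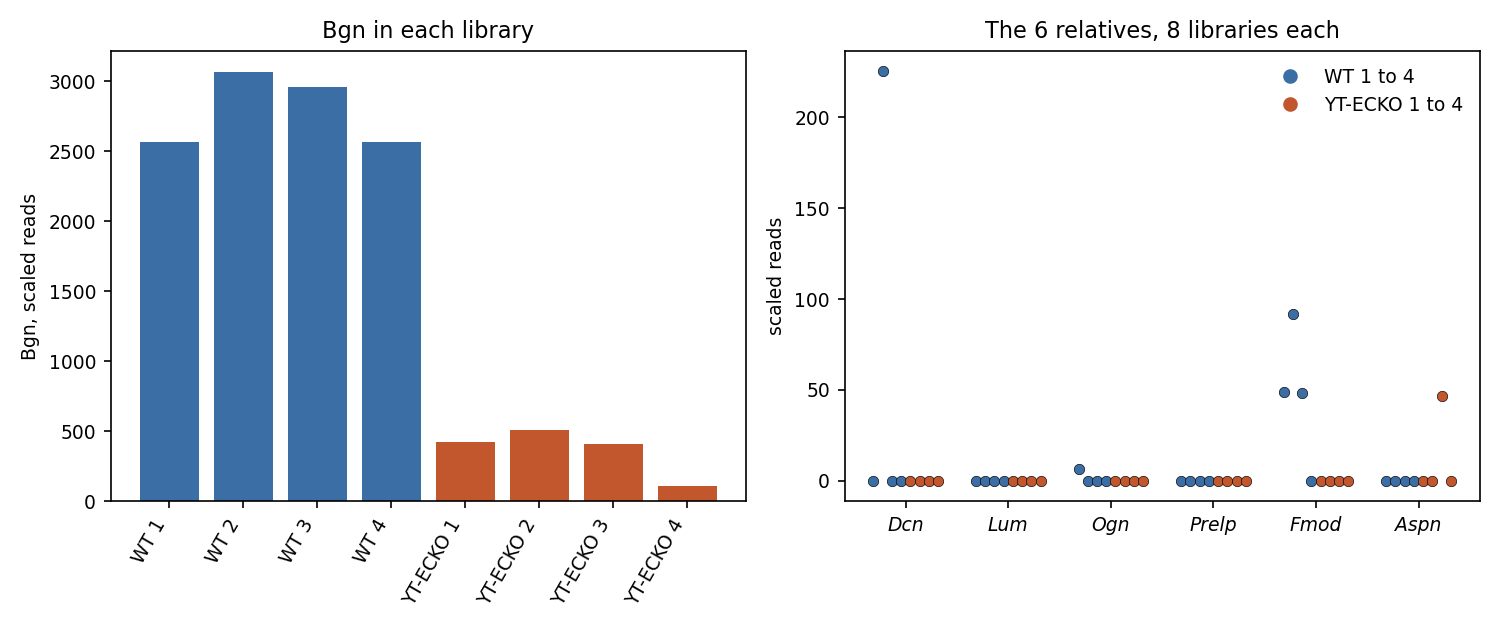
Scaled reads of Bgn in each library (left, bars) and of the 6 relatives (right, 1 point per library), WT in blue and YT-ECKO in orange. Bgn stands at 2566 to 3066 in WT and 111.5 to 508.8 in YT-ECKO, while 42 of the 48 values of the relatives lie at 0.

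The wider family was as sparse. None of 11 further family members and close relatives passed the filter, and 7 of them (Epyc, Kera, Optc, Nyx, Chadl, Podn and Podnl1) were at 0 in all 8 libraries. Omd (osteomodulin) stood at 21.3 scaled reads in WT 2, 3.0 in WT 4 and 41.8 in YT-ECKO 2. Ecm2 stood at 36.2 in WT 1, 228.8 in WT 3 and 1.2 in YT-ECKO 4. Chad (chondroadherin) was seen in YT-ECKO 4 alone at 140.9 and Tsku (tsukushi) in YT-ECKO 3 alone at 148.0. These scattered values have no common direction.

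Markers of fibroblasts and mural cells, the other cells of the vessel wall that can make small proteoglycans, were low and overlapped between the groups. Of 18 fibroblast markers, which leave out the 7 members, 6 (Dpt, Mfap5, Slc6a13, Slc22a6, Aldh1a2 and Crabp2) were at 0 in all 8 libraries and 5 passed the filter. Their sum ran from 1640 to 3140 scaled reads in WT and from 739 to 2958 in YT-ECKO (two-sided exact permutation p = 0.771, adjusted over 9 marker lists 0.868). Pdgfra, a defining marker of fibroblasts, was above 0 in WT 3 alone at 74.6, and Col1a2 in WT 1 and WT 2 at 114.4 and 11.5. Other sparse markers were higher in YT-ECKO. Islr was above 0 in YT-ECKO 4 alone at 210 and Twist1 in YT-ECKO 3 alone at 204.8. Postn stood at 13 in WT 2 and 334.5 in YT-ECKO 3 and at 0 elsewhere. Serpinf1 had means of 83.1 in WT and 118.9 in YT-ECKO. The most abundant of the list was Fbln2 (fibulin 2), at 543 to 1780 in WT and 348 to 1875 in YT-ECKO. Its mean was 1011 in WT and 1249 in YT-ECKO, where the sum of the list had means of 2192.5 and 2030.7.

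Cdh11 (cadherin 11) was the only marker of the fibroblast list whose groups did not overlap. It stood at 486.4, 439.9, 665.4 and 433.5 scaled reads in WT 1 to 4 and at 175.6, 201.3, 284.0 and 270.0 in YT-ECKO 1 to 4, so the groups did not overlap. It was singled out for this after its values were seen, and 2.07% of all tested genes had such lower values. Over all genes its log2 difference of -0.81 ± 0.53 (SE) was not called (limma adjusted p = 0.980). Of the other tested markers of the list, Lama1 (-0.87 ± 0.50), Fbln1 (-0.38 ± 0.50) and Col3a1 (-0.33 ± 0.51, SE) also had lower values, with overlap. Fbln2 had higher values (0.23 ± 0.50, SE), and no marker of the list was called by limma. The values of Cdh11, Lama1, Fbln1 and Col3a1 go the same way as those of Bgn, where 56.9% of all tested genes had lower values. Their part in the Bgn result was not tested.

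Of 17 mural markers, Anpep was at 0 in all 8 libraries and 5 passed the filter. All 5 tested markers had lower values in YT-ECKO (56.9% over all tested genes), and none was called by limma. Rgs5 had a log2 difference of -1.06 ± 0.61, Vtn one of -0.55 ± 0.40 and Tagln one of -0.43 ± 0.54 (SE). Those of Notch3 and Acta2 were -0.42 ± 0.31 and -0.39 ± 0.45 (SE). Of the untested markers, Pdgfrb, Abcc9, Higd1b, Ndufa4l2 and Atp13a5 had higher means in YT-ECKO. Kcnj8, Cspg4, Myh11, Cnn1, Des and Heyl had lower ones. The sum of the list ran from 412.7 to 1821 scaled reads in WT and from 156 to 1433 in YT-ECKO (exact permutation p = 0.514, adjusted 0.808). Rgs5, a pericyte marker, stood at 355.6, 680.3, 107.4 and 114.4 in WT 1 to 4 and at 3.1, 1.8, 418.5 and 0 in YT-ECKO 1 to 4, with overlap. Pdgfrb, the receptor that defines pericytes, was listed at 0 in WT 3, WT 4 and YT-ECKO 1, 2 and 4. Abcc9 was at 0 in WT 2 to 4 and in YT-ECKO 1 and 4. In WT 4, where Bgn stood at 2566 scaled reads, the mural sum of 412.7 was made up of Tagln (296.3, its highest value in the 8 libraries), Rgs5 (114.4) and Acta2 (2.0). In YT-ECKO 3, where Bgn stood at 408.4, the mural sum was 1433, with Pdgfrb at 523.8. In WT 1 and YT-ECKO 1 the mural sum was 1821 and 156, with Bgn at 2569 and 424.9. The part of these cells in the Bgn result was not tested.

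Relative to these lists, Bgn was lower in YT-ECKO against fibroblast and endothelial markers without overlap. Bgn amounted to 0.818 to 1.72 times the fibroblast sum in WT and 0.0406 to 0.575 times in YT-ECKO. Against the mural sum the ratios overlapped, at 1.41 to 6.22 in WT and 0.107 to 2.73 in YT-ECKO, where YT-ECKO 1 had both the highest ratio and the lowest mural sum. Against the endothelial sum Bgn amounted to 0.0128 to 0.0165 in WT and 0.000542 to 0.00267 in YT-ECKO. With the fibroblast sum added to the fit as a covariate the Bgn difference was -2.72 ± 0.44, and with the mural sum -2.70 ± 0.44 (SE). Bgn was selected for its difference, and these sums overlapped between the groups. Lower ratios and a kept difference follow from that choice and are a description. The part of other cells in the Bgn result was not tested.

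**Figure D2:**
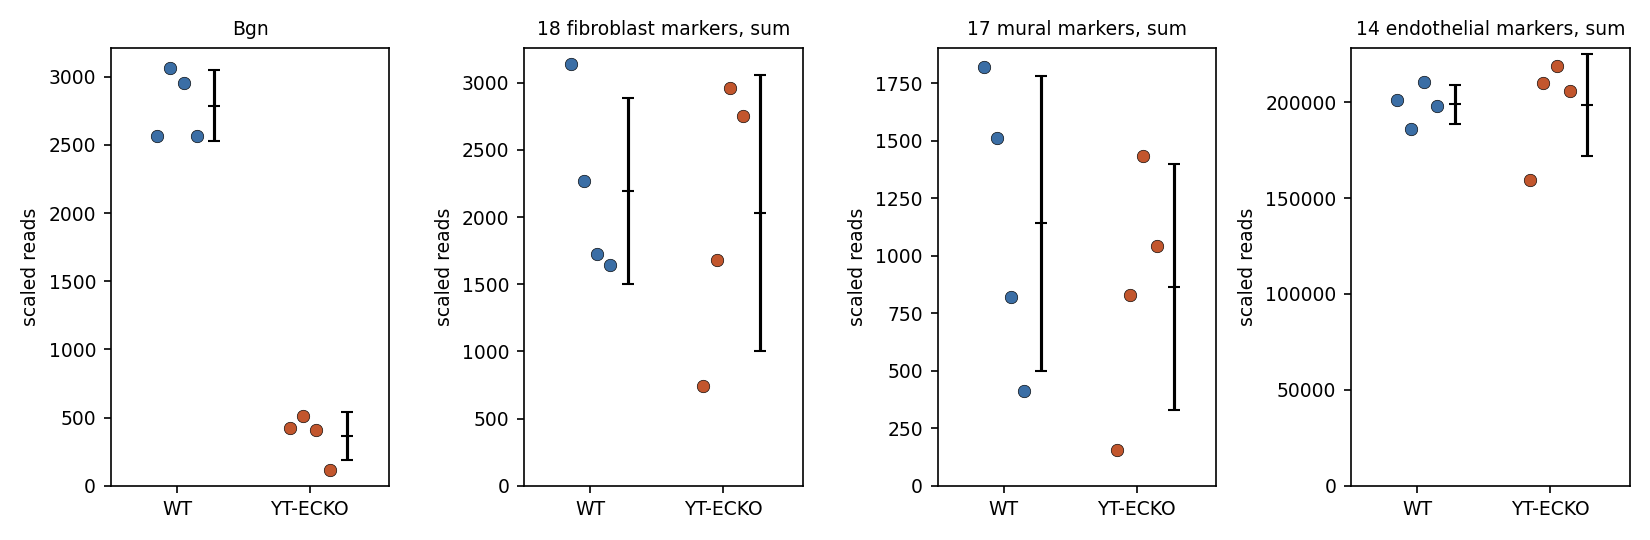
Scaled reads of Bgn and of the summed fibroblast, mural and endothelial markers, 1 point per library, with the mean and SD of each group as a black bar (n = 4). The groups are apart for Bgn and overlap for the 3 marker sums.

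The ranges of the other marker sums also overlapped between the groups. In the exact permutation test of the sums, adjusted p ran from 0.808 to 0.971 over the 9 lists. With 4 libraries per group, even groups fully apart, as for Yap1, have an unadjusted p of 0.0286 in this test. A single list fully apart could thus not pass after adjustment, and the test cannot show that the sums were alike. Neuronal means were 117.9 in WT and 752.7 in YT-ECKO. Oligodendrocyte and erythroid means were also higher in YT-ECKO, and astrocyte, microglial and choroid plexus means were lower. Summed astrocyte markers, led by Sox9 and Gja1, ran from 1311 to 1915 scaled reads in WT and 497 to 2170 in YT-ECKO. Neuronal markers, led by Rbfox3 and Stmn2, ran from 5.97 to 347 and from 17.6 to 1896, and oligodendrocyte markers, led by Cnp and Mbp, from 1.99 to 515 and from 165 to 1283. Microglial markers, led by Cx3cr1 and Csf1r, reached at most 161 in WT and 129.6 in YT-ECKO. Choroid plexus markers, led by Ttr and Clic6, reached 4825 and 1666. Erythroid markers, led by Hba-a1 and Hba-a2, ran from 17753 to 49654 and from 17869 to 60042. Hba-a1 and Hba-a2 held the same values in every library, as did Hbb-bs and Hbb-b1, and Hbb-bt and Hbb-b2. The erythroid sums thus count the same values under both symbols of each pair.

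Because Bgn is X-linked and the labels name no sex, sex-linked transcripts are set beside it. Xist, the RNA of the inactive X chromosome, stood at 17929, 8255, 22931 and 4611 scaled reads in WT 1 to 4 and at 6299, 8434, 4150 and 6.91 in YT-ECKO 1 to 4. The sum of 4 Y-linked genes ran from 4.43 to 471 in WT and from 486 to 1379 in YT-ECKO, without overlap. Higher YT-ECKO values without overlap were found for 116 of 8706 tested genes. Y-linked RNA thus differed with the genotype, and the part of sex in the Bgn difference was not tested. Xist and Y-linked RNA occurred in the same library, as in WT 3 (22931 and 416) and YT-ECKO 2 (8434 and 1249). YT-ECKO 4 had both the lowest Bgn and the lowest Xist, and WT 4, whose Xist was close to that of YT-ECKO 3, had a Bgn of 2566 against 408.4. With Xist as a covariate the Bgn difference was -2.20 ± 0.47 (SE), and without YT-ECKO 4 it was -2.34 ± 0.41 (SE).

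Of 258 tested X-linked genes, Bgn was the 1 that was called, and their median log2 difference was -0.12, against -0.09 for 8137 autosomal genes. Groups without overlap and with lower YT-ECKO values were found for 11 X-linked genes (4.26%), Bgn included, against 2.07% of all tested genes, and this difference in shares was not tested. Of the 14 other listed genes within 250 kb of Bgn, 9 were at 0 in all 8 libraries and 3 were tested. Dusp9, which was not tested, stood at 82.7 in WT 1 and 97.1 in WT 3 and at 0 elsewhere. Haus7, also not tested, had means of 82.4 in WT and 153.6 in YT-ECKO. Over all tested genes 56.9% had lower values in YT-ECKO, and all 3 tested neighbours had higher values. None of them was called by limma, which called 3 of all 8706 tested genes. At an unadjusted p under 0.05 there were 0 of them, and 476 of all tested genes. Voom called 0 genes in all, so its 0 calls here carry no information. Zfp275, a zinc finger gene, had a log2 difference of 0.57 ± 0.61, the creatine transporter gene Slc6a8 0.37 ± 0.74 and Bcap31, an endoplasmic reticulum protein gene, 0.22 ± 0.49 (SE).

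Genes that build, cut and bind small proteoglycans were given by lists of 133 genes in all, of which 52 were tested and 35 were at 0 in all 8 libraries. None was called in either direction (limma, adjusted p under 0.05), where limma called 3 of all 8706 tested genes. Of the 52, 3 had an unadjusted p under 0.05, 2 lower (Fn1 and Ctgf) and 1 higher (Timp3). Over all genes, 476 of 8706 had an unadjusted p under 0.05. Voom called 0 genes in all, so its 0 calls among the related genes carry no information. Lower values were found for 30 of the 52 and higher for 22, where 56.9% of all tested genes had lower values, with a median log2 difference of -0.18 against -0.09 for all tested genes.

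Other proteoglycan core proteins had no called member. Of 26 listed, 12 were tested, 6 with lower and 6 with higher values, a median log2 difference of -0.07 and 0 calls. Hspg2 (perlecan), the large heparan sulfate proteoglycan of the basement membrane, stood at 7913, 4949, 7368 and 2478 scaled reads in WT 1 to 4 and at 3764, 7019, 8786 and 4905 in YT-ECKO 1 to 4. Agrn (agrin), another basement membrane proteoglycan, stood at 7298 ± 2799 in WT and 7869 ± 1166 in YT-ECKO (SD, n = 4 each), and the 95% interval of its log2 difference ran from -0.43 to 0.79. Both intervals, that of Hspg2 running from -0.57 to 0.89, exclude a difference as large as that of Bgn. Col18a1, the collagen that carries heparan sulfate and endostatin, had a difference of 0.65 ± 0.33 (SE; limma adjusted p = 0.928). Sdc3 (syndecan 3) had a difference of -0.47 ± 0.46 (SE). Vcan (versican), a large chondroitin sulfate proteoglycan, stood at 462.1, 369.6, 616.5 and 0 in WT 1 to 4 and at 1501 in YT-ECKO 1 with 0 in YT-ECKO 2 to 4.

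The enzymes that build the chondroitin and dermatan sulfate chains of biglycan had no called member. Of 28 listed genes 18 were tested, 10 with lower and 8 with higher values and a median of -0.15. Chst14, the sulfotransferase of dermatan sulfate, stood at 29.4, 1.5, 89.2 and 95.5 scaled reads in WT 1 to 4 and at 410.7, 405.1, 252.7 and 0 in YT-ECKO 1 to 4, so its difference was 0.96 ± 0.56 on the log2 scale (SE; limma adjusted p = 0.960). Uxs1, which makes the UDP-xylose that starts each chain, had a difference of 0.95 ± 0.58, and Chst7, a chondroitin sulfotransferase, one of -0.81 ± 0.58 (SE). Papss1, which makes the sulfate donor and was the most abundant of the list, stood at 1861 ± 1540 in WT and 2099 ± 573 in YT-ECKO (SD, n = 4 each). Chst11, the next most abundant, had a difference of -0.19 ± 0.62 (SE). Of the xylosyltransferases that start the chain, Xylt1 was at 0 in all 8 libraries and Xylt2 stood at 95.3 to 548 in WT and 78.6 to 789 in YT-ECKO.

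Among 18 proteases and inhibitors that act on small proteoglycans, 6 were tested, 5 with higher and 1 with lower values, a median of 0.38 and 0 calls. Bmp1, the protease that removes the biglycan propeptide, was above 0 in all 4 WT libraries (119.5 to 360.0 scaled reads) and in 3 YT-ECKO libraries (81.6 to 378.7), and at 0 in YT-ECKO 3. Timp3, a matrix-bound inhibitor of metalloproteases, stood at 658.9, 1155, 1299 and 748.1 in WT 1 to 4 and at 2650, 2052, 2061 and 1966 in YT-ECKO 1 to 4, all 4 above every WT library, as for 116 of the 8706 tested genes. Its log2 difference of 1.11 ± 0.39 (SE) did not pass over all genes (limma adjusted p = 0.698). Adamts1 had a difference of 0.52 ± 0.48 and Timp2 one of 0.48 ± 0.61 (SE).

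Matrix proteins that small proteoglycans bind were split. Of 17 listed, 5 were tested, 2 with lower and 3 with higher values and a median of 0.01. Fibrillar collagens, the main ligands of decorin, biglycan and fibromodulin, were low or uneven. Col1a1 reached 265.6 scaled reads in WT 4 and 179.1 in YT-ECKO 4 and at most 4.4 elsewhere. Col5a2 stood at 191, 311, 64.1 and 513 in WT 1 to 4 and at 483, 243, 817 and 3.46 in YT-ECKO 1 to 4. Outside the fibrillar collagens, Col6a1, Col6a2 and Col6a3, which form the type VI collagen that biglycan organises, were at 0 in all 8 libraries. Col3a1 had a difference of -0.33 ± 0.51 and Eln (elastin) one of 0.20 ± 0.45 (SE). Fn1 (fibronectin) had lower values in all 4 YT-ECKO libraries, with a difference of -0.94 ± 0.22 (SE) that was not called (limma adjusted p = 0.199).

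Of 13 growth factors held by small proteoglycans 4 were tested, all 4 with lower values, a median of -0.61 and 0 calls, against 56.9% lower over all tested genes. Ctgf (connective tissue growth factor) had a difference of -1.13 ± 0.48 (SE; limma adjusted p = 0.861), with values that overlapped. Pdgfb had a difference of -0.50 ± 0.34 and Pdgfa one of -0.72 ± 0.59 (SE). Tgfb1 was above 0 in WT 3 and WT 4 alone, at 79.9 and 23.9. Tgfb2 stood at 1240, 1387, 1250 and 931 in WT 1 to 4 and at 890, 591, 1809 and 687 in YT-ECKO 1 to 4, with overlap.

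Of 20 receptors and signalling proteins reported for soluble biglycan or decorin, 7 were tested, all 7 with lower values (56.9% over all tested genes), a median of -0.21 and 0 calls. The innate receptors of biglycan were hardly detected: Tlr4 was above 0 in YT-ECKO 3 alone at 49.2 scaled reads, Tlr2 in WT 1, WT 4 and YT-ECKO 1 at 36.2, 103.5 and 1.6, and their co-receptor Cd14 in none. P2rx7, the ATP-gated channel that biglycan can couple to, had a difference of -0.63 ± 0.61, the Wnt co-receptor Lrp6 one of -0.58 ± 0.58 and Pycard, an inflammasome adaptor, one of -0.34 ± 0.38 (SE). Kdr, the VEGF receptor to which decorin binds, stood at 19471 ± 4933 in WT and 17730 ± 7130 in YT-ECKO (SD, n = 4 each), with a 95% interval of the log2 difference from -0.73 to 0.36. Dag1 (dystroglycan), which biglycan binds in muscle, had a difference of -0.21 ± 0.33 (SE).

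**Figure D3:**
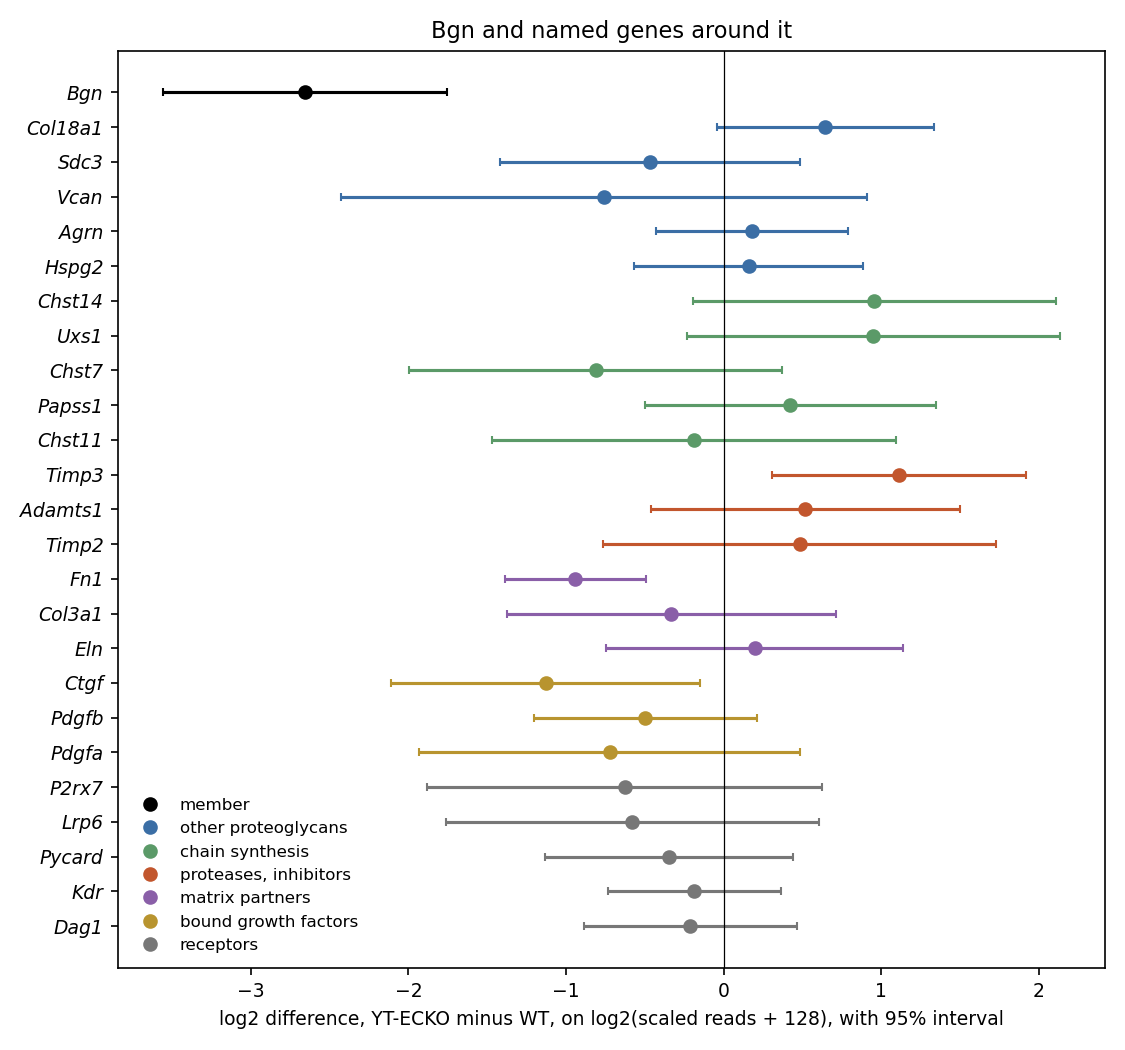
Log2 difference between YT-ECKO and WT (x axis), with 95% intervals, for Bgn and the named genes of the 6 lists with tested genes. Bgn, at -2.66, was selected for its difference, and the intervals of 3 others (Timp3, Fn1 and Ctgf) leave out 0 without a call after adjustment.

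The genes whose levels followed Bgn most closely were ranked by Pearson r over the 8 libraries, among 1894 tested genes whose mean reached 1000 scaled reads, leaving out predicted genes. They were Spin1 (r = 0.95), Camk2d (0.95), Dusp1 (0.93), Spcs2 (0.92), Ablim1 (0.92) and Eci2 (0.92), all lower in every YT-ECKO library than in every WT library. The libraries share the group difference that selected Bgn, so these values describe the ranking and nothing else. After removal of the group means the correlation was 0.81 for Spin1, 0.79 for Dusp1, 0.72 for Eci2, 0.42 for Spcs2, 0.40 for Camk2d and 0.38 for Ablim1. Spin1, which encodes a histone reader, stood at 4615, 4987, 3767 and 3631 scaled reads in WT 1 to 4 and at 2456, 1977, 2429 and 1224 in YT-ECKO 1 to 4, again lowest in YT-ECKO 4. Eci2, an enzyme of fatty acid oxidation, stood at 1966 ± 767 in WT and 463 ± 264 in YT-ECKO (SD, n = 4 each). Camk2d, a calcium/calmodulin-dependent kinase chain, was the 1 of the 6 that was called (-3.83 ± 0.56, SE; limma adjusted p = 0.00269), and the call was lost without WT 2 (limma adjusted p = 0.0580) and, by voom, with all libraries (adjusted p = 0.662). The differences of Dusp1, a phosphatase of MAP kinases, Spcs2, a signal peptidase subunit, and Ablim1, an actin-binding protein, were smaller, at -0.41 ± 0.41, -0.67 ± 0.37 and -0.63 ± 0.22 (SE).

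**Figure D4:**
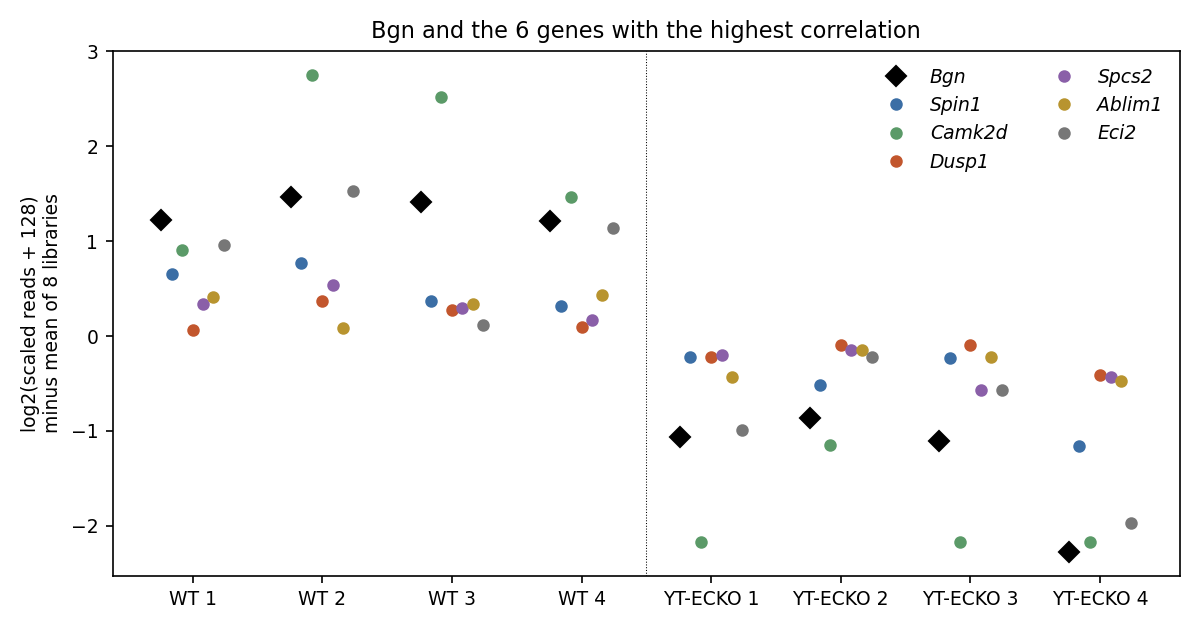
Levels of Bgn (black diamonds) and of the 6 genes most correlated with it in each library, as log2 values with a pseudocount, minus the mean of the 8 libraries. Every gene lies higher in WT than in YT-ECKO, and Bgn, Spin1, Dusp1, Ablim1 and Eci2 are lowest in YT-ECKO 4.

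The YT-ECKO libraries also differed in what was left of the targeted genes. YT-ECKO 1 had the lowest Wwtr1 (348 scaled reads) and Yap1 (9.29) but a Bgn of 424.9. YT-ECKO 4 had the lowest Bgn (111.5) with Wwtr1 at 1124 and Yap1 at 402. YT-ECKO 2 had the highest Wwtr1 (2609) and Yap1 (605) and the highest Bgn (508.8). With 4 libraries this order is a description and no correlation is given.

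Across processing settings Bgn kept its direction. In 22 alternatives of pseudocount, scaling, filter, model, covariates and left-out libraries, its log2 difference was negative each time, between -3.14 and -2.20. Bgn was selected for its difference and its groups did not overlap, so the kept direction is a description and no independent support.

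**Figure D5:**
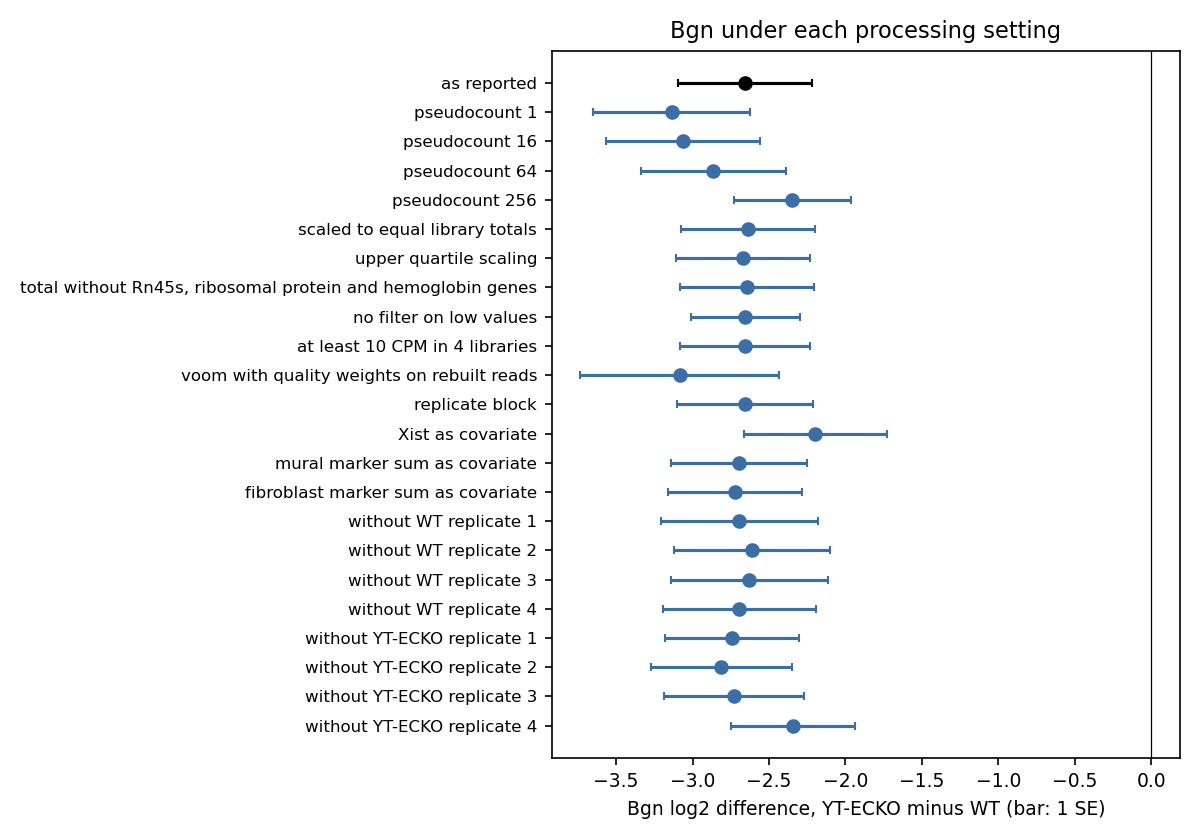
Log2 difference of Bgn between YT-ECKO and WT (x axis; bar, 1 SE) as reported (black) and under 22 other settings (blue). All values lie between -3.14 (pseudocount of 1) and -2.20 (Xist as covariate).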

How the data were processed

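RNA of sorted brain endothelial cells was measured in 4 WT and 4 YT-ECKO libraries prepared with a Lexogen Quant-Seq kit, per the labels' protocols. Bowtie2 and edgeR were used by the authors with build mm10, per the submitters' processing notes, and counting and strand setting are not stated. The authors deposited log2 values, 1 table per library. From the values, these are log2 of scaled reads: linear values below 12 fell on whole multiples of a step per library (89.7% to 100% of them, tolerance 0.1), which gave the implied reads. Of 24421 rows per table, 27 were left out because their symbol was repeated within a table or not shared by all tables.

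The 8706 genes that passed the filter were tested with limma 3.58.1 (trended, robust) on log2(scaled reads + 128), Benjamini-Hochberg threshold 0.05. Marker sums were compared by two-sided exact permutation tests. Alternatives included voom on rebuilt reads with the deposited scaling. The fits were tested on simulated data. GENCODE M21 placed 8397 tested genes by symbol.

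The members, gene lists and tests were chosen with earlier results of these data known. Named genes were the members, the targeted genes, up to 3 of smallest p and the 2 most abundant of each related list, the 2 most abundant of each marker list and the 6 most correlated with Bgn. Others were named after their values were seen.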

Additional observations from a re-analysis of the deposited data

Results flagged for a closer look

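Of 92 groups of 4 libraries examined (46 quantities in 2 groups), 11 held a library whose gap to the nearest replicate, divided by the whole range of the group, exceeded Dixon's 95% critical value. For values spread as a normal distribution chance gives this in about 1 in 20 groups, a rate that was not examined for groups with 3 values at 0. Among the members, Dcn in WT 2 (225.3 scaled reads), Ogn in WT 1 (6.671) and Aspn in YT-ECKO 3 (46.59) were each the single value above 0 in their group. YT-ECKO 1 stood above its replicates for Vcan (1501), Timp3 (2650) and Timp2 (1043). WT 3 was highest for Fn1 (79960) and WT 4 lowest for Dag1 (4871). Pycard was above 0 among the YT-ECKO libraries in YT-ECKO 4 alone (172.3), and Camk2d in YT-ECKO 2 alone (133). Bcap31, a neighbour of Bgn, was lowest in WT 1 (286.2). For Bgn, YT-ECKO 4 (111.5) was far below its replicates without reaching this critical value.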

How the results depend on the processing

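The Bgn difference, for which Bgn was selected, kept its sign under all 22 alternatives. It moved by more than the spread between replicates (0.46 on the log2 scale) with a pseudocount of 1 (-3.14), and ranged from -2.81 to -2.34 with single libraries left out. The number of genes called was 3, and became 0 with a pseudocount of 1, with no filter, and with voom, 5 with Xist as covariate, and 0 to 6 with single libraries left out (0 without WT 2, 1 without WT 1, 6 without YT-ECKO 3). Without a filter, 4 members in place of 1 had a lower value (Bgn, Dcn, Ogn and Fmod). After removal of the group means, same-numbered libraries had weak correlations (from -0.04 to 0.08), and the numbers were not taken as pairs. WT 3 and WT 4 were best matched by the YT-ECKO library of their own number, WT 1 and WT 2 by another. With the replicate number as a block 5 genes were called, 1 of them among the related genes (Fn1, limma adjusted p = 0.0497) in place of 0. The Bgn difference with this block was -2.66. By Spearman's rho, 3 of the 6 genes most like Bgn were the same. Of 785 values of single genes under the alternatives, 17 changed sign, in 10 of 36 genes, none of them called. With a pseudocount of 1, low genes had larger differences, such as Uxs1 (3.15), Chst7 (-3.02), Pdgfa (-2.57), Pycard (-4.28) and Vcan (-4.03), and none was called. None of the marker sums of fibroblasts, mural cells and endothelium passed an exact permutation p of 0.05 with equal library totals and with each library left out. The causes of these changes were not tested. Lower levels of Dcn, Lum, Ogn, Prelp and Aspn in YT-ECKO were not detectable, since these genes were at 0 in at least 3 of the 4 WT libraries.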
